A study of Rattus norvegicus with 4 samples.

Results

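In primary rat Schwann cells infected with a lentivirus for the antisense RNA of the Egr2 promoter, 177 stretches of 1 Mb held open chromatin regions that mostly ranked lower than in the control virus libraries. These domains held 2406 regions, of the 31790 regions that carried an ATAC-seq peak in all 4 libraries, and they lay on each of the 20 numbered chromosomes. The domains were chosen by the measured values themselves. Peaks of the 4 lists that shared at least 1 bp were merged into 58879 regions, and the 31790 regions present in all 4 lists were kept. The summit pileup of a peak, which is the number of fragments over its highest point, was recovered as a whole number and ranked within each library from 0 for the weakest to 100 for the strongest kept region. The difference of a region was its mean rank in LentiAS minus its mean rank in LentiGFP, in percentile points. A bin of 1 Mb was called a domain shifted down when it held at least 10 kept regions and at least 75% of them had a difference under 0. Of the 1311 bins with at least 10 kept regions, 177 passed (13.5%), and the mirror rule gave 150 domains shifted up with 4356 regions.

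Schwann cells are the glia of peripheral nerves. Egr2, also called Krox20, is the transcription factor that drives their myelin genes, and the study concerns an antisense RNA transcribed from its promoter, which is known to appear after nerve injury. ATAC-seq uses a transposase that cuts and tags accessible DNA, so that promoters and enhancers stand out as peaks above the fragments scattered over the rest of the chromosome. Chromosomes are organised on the scale of a megabase into gene-rich stretches with many accessible sites and gene-poor stretches with few. The local background in a peak list is the peak caller's estimate from the fragments around a peak, which can include those of the peak and of close neighbours.

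The LentiAS libraries came from cells infected with the virus expressing the Egr2 antisense RNA, and the LentiGFP libraries from cells infected with a virus carrying GFP, with 2 libraries per group. Cells came from sciatic nerve and grew in medium with 10% FBS, 4 µM forskolin and 5 ng/ml heregulin, and both groups received 2 UFC of virus per cell for 48 h before 100000 cells entered each library. According to the methods of the study, the antisense RNA was cloned into a DsRed vector and the control was an AcGFP vector, while the labels call the control the backbone virus with GFP. If the vectors differed in the fluorescent protein, its part and that of the RNA cannot be told apart. No uninfected cells and no other sequence in the same vector are part of this comparison. The labels call the libraries biological replicates without saying which cultures they came from, so the spread between them may be partly technical. No annotation of rn6, the build of the lists, was used, so regions are given by position and neither genes nor Schwann cell markers were analysed here.

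The libraries differed in depth. The lists held 54289 and 35646 peaks in LentiGFP replicates 1 and 2 and 43312 and 46125 peaks in LentiAS replicates 1 and 2. The genome-wide background, the lowest local background that the peak caller used, was 4.99 fragments in LentiGFP replicate 1 and between 1.98 and 2.80 in the other libraries. LentiGFP replicate 1 was therefore the deepest by this measure and LentiGFP replicate 2 the shallowest. Ranks within a library and pileups divided by its genome-wide background were used for that reason. Pileups of single regions are given below as raw fragment counts, which cannot be compared directly between libraries of different depth.

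The regions of the domains ranked a little under the middle in the control libraries and lower in the antisense libraries. Their median rank was 47.2 in LentiGFP replicate 1, 46.6 in LentiGFP replicate 2, 38.3 in LentiAS replicate 1 and 40.5 in LentiAS replicate 2. The groups did not overlap, and the mean of these medians was 39.4 ± 1.56 (SD, n = 2) in LentiAS and 46.9 ± 0.484 (SD, n = 2) in LentiGFP. The rule used this contrast, so the gap describes the choice and was not tested. Over all kept regions the median rank lay between 49.4 and 50.4 in every library. The domains shifted up had median ranks of 56.1 and 56.6 in LentiGFP and 61.4 and 60.9 in LentiAS.

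**Figure D1:**
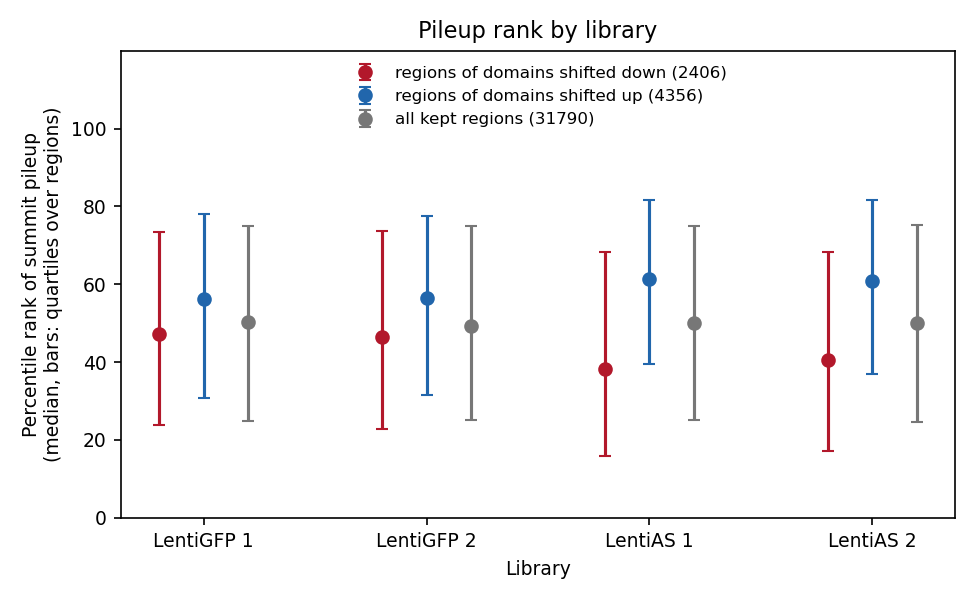
Percentile rank of summit pileup (0 to 100) in each library for the 2406 regions of domains shifted down, the 4356 regions of domains shifted up and all 31790 kept regions. Points are medians over regions and bars run from the lower to the upper quartile. The red medians sit at 47.2 and 46.6 in LentiGFP and at 38.3 and 40.5 in LentiAS, with wide overlap between the bars.

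Of the 2406 regions, 1980 (82.3%) had a difference under 0, compared with 48.8% of all kept regions. The median difference was −4.58 percentile points, with quartiles of −9.51 and −0.94 and a range from −34.1 to 26.8. Both LentiAS ranks lay below both LentiGFP ranks in 1076 regions (44.7%, against 22.5% of all kept regions). The opposite order held in 141 regions (5.86%, against 23.2%). The ranks of the other regions overlapped between the groups.

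The rule favours lower ranks in both LentiAS libraries, so the shares by pairs of libraries are given only as a description. The 4 pairings of a LentiAS with a LentiGFP library gave similar shares. The regions ranked lower in LentiAS replicate 1 than in LentiGFP replicate 1 in 1727 cases (71.8%, against 48.7% of all kept regions). They ranked lower in LentiAS replicate 1 than in LentiGFP replicate 2 in 1820 cases (75.6%, against 49.2%). The counts for LentiAS replicate 2 were 1782 against LentiGFP replicate 1 (74.1%, against 49.6%) and 1726 against LentiGFP replicate 2 (71.7%, against 50.2%). Between replicates of one group the regions split almost evenly. LentiAS replicate 1 was lower than LentiAS replicate 2 in 1260 regions (52.4%, against 49.2%), and LentiGFP replicate 1 was lower than LentiGFP replicate 2 in 1217 (50.6%, against 50%). The median absolute gap in rank was 4.81 between the LentiAS replicates and 5.17 between the LentiGFP replicates, and between 5.97 and 6.93 across the groups. Over all kept regions these gaps were 4.42, 4.95 and between 5.23 and 6.22.

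The median pileup over the genome-wide background gave a different picture from the ranks. It was 15.2 and 19.7 for the regions of the domains in LentiGFP replicates 1 and 2, and 20.5 and 18.2 in LentiAS replicates 1 and 2. The group means of 19.4 ± 1.66 (SD, n = 2) in LentiAS and 17.4 ± 3.15 (SD, n = 2) in LentiGFP differed by less than the spread in LentiGFP. Over all kept regions the same quantity was 24.0 ± 3.19 (SD, n = 2) in LentiAS and 18.3 ± 3.29 (SD, n = 2) in LentiGFP. The median of the domains was therefore 0.95 and 0.951 of the genome's in the LentiGFP replicates and 0.782 and 0.836 of it in the LentiAS replicates. A limma fit to log2 of this quantity called 0 regions of the domains at an adjusted p of 0.05, as over all kept regions, and at an unadjusted p of 0.05 it gave 1 of them lower and 52 higher, next to 22 lower and 4576 higher over all kept regions. With each library centred on its median over all kept regions, an alternative added after the data were seen, limma called 132 regions of the domains lower (5.49%, against 2.27% of all kept regions) and 1 higher (0.164% of all kept regions were higher) at an adjusted p of 0.05. These fits use the rule's contrast and describe the choice.

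The local background of the peaks was lower in LentiAS on this scale, unlike the pileup. Around the regions of the domains, the median local background over the genome-wide background was 2.67 and 2.72 in LentiGFP replicates 1 and 2, and 2.44 and 2.42 in LentiAS replicates 1 and 2. The group means were 2.43 ± 0.00979 (SD, n = 2) in LentiAS and 2.70 ± 0.0355 (SD, n = 2) in LentiGFP, a gap of −0.27 that exceeded the spread within either group. Over all kept regions the gap was 0.15 in the opposite direction, and over the domains shifted up it was 0.79. Local background and pileup come from the same reads and the same contrast, so this gap is a description as well. An exact permutation test over 2 against 2 libraries cannot give a two-sided p below 0.333.

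In ranks, the background difference was under 0 in 1999 of the 2406 regions (83.1%, against 48.4% of all kept regions), with a median of −4.65 percentile points. The fold enrichment of pileup over local background gave differences in both directions. Its rank difference was under 0 in 1193 regions (49.6%, against 47.7%), with a median of 0.055 percentile points and quartiles of −7.10 and 5.86. The median fold rank was 58.6 and 57.9 in LentiGFP replicates 1 and 2, and 55.2 and 56.9 in LentiAS replicates 1 and 2. The groups did not overlap, and the group means differed by −2.19 percentile points, with SDs of 0.527 in LentiGFP and 1.24 in LentiAS (n = 2 each). In a limma fit to the fold ranks, 0 regions were called at an adjusted p of 0.05, and at an unadjusted p of 0.05 the domains had 167 regions lower (6.94%, against 4.80% of all kept regions) and 81 higher (against 3.87% of all). Fold contains the pileup that the rule used, so the fold values describe the choice as well. The deposited fold itself had medians of 5.40 and 6.33 in LentiGFP replicates 1 and 2, and 7.26 and 6.63 in LentiAS replicates 1 and 2. The group means of 6.95 ± 0.450 and 5.87 ± 0.658 (SD, n = 2 each) differed by 1.08, next to 1.09 over all kept regions. When the same rule was applied to ranks of fold, 29 domains with 490 regions passed in place of 177, and they covered 107 (4.45%) of the 2406 regions.

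Per domain the pattern was nearly complete for the background. The median background rank difference was under 0 in 176 of the 177 domains (99.4%, against 51.9% of the 1311 bins). The median fold rank difference was under 0 in 87 domains (49.2%, against 39.9%). The exception for the background was chr14:46000001-47000000, the domain with the most regions. There 21 of 28 regions had a lower pileup rank in LentiAS with a median difference of −1.43, the background difference was 1.27, and the fold difference was −9.75, with 23 of 28 regions lower in fold.

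**Figure D2:**
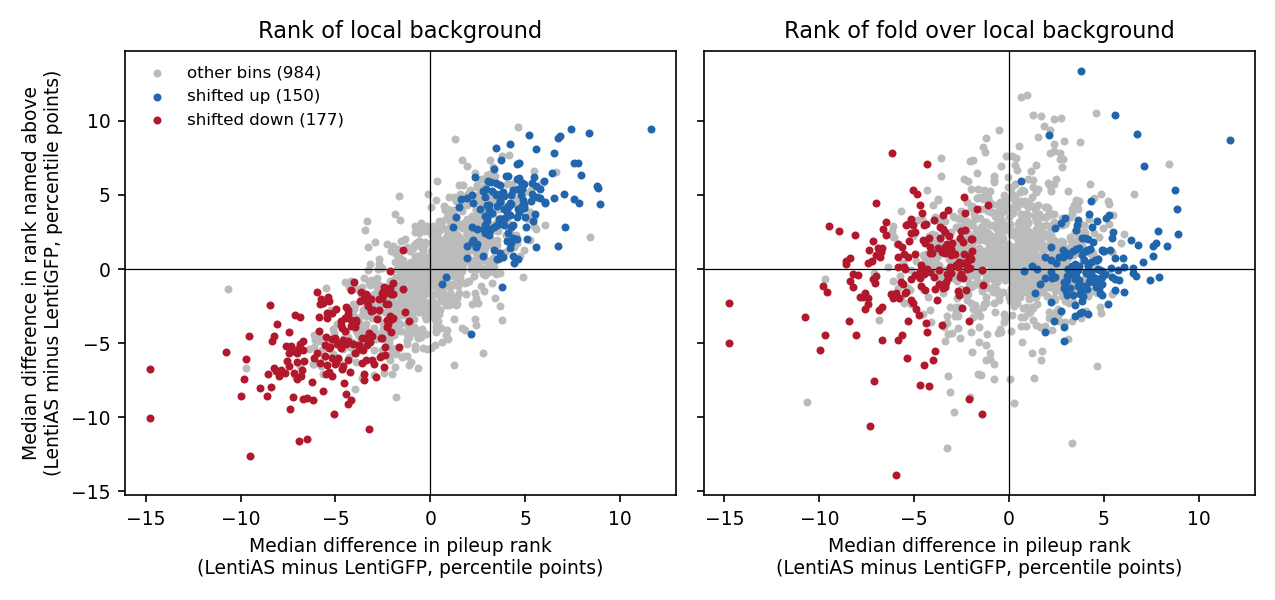
Each point is 1 of the 1311 bins of 1 Mb with at least 10 kept regions. The horizontal axes give the median difference in pileup rank and the vertical axes the median difference in the rank of local background (left) or of fold over local background (right), all LentiAS minus LentiGFP in percentile points. The 177 domains shifted down lie below 0 for background in 176 cases and for fold in 87.

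The domains held between 10 and 28 kept regions, with a median of 12. The share of regions with a difference under 0 ran from 75% to 100%, with a median of 81.0%, and it was 100% in 11 domains. The median difference of a domain ran from −14.8 to −1.10 percentile points, with a median of −4.68. At the edge of the rule, 31 domains sat at exactly 75% with median differences between −8.37 and −1.10. Just outside it were 2 bins at 73.9%. Of these, chr2:200000001-201000000 had 17 of 23 regions under 0 and a median difference of −5.61, and chr15:34000001-35000000 had 17 of 23 and −2.92.

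In 116 domains (65.5%, against 23.7% of the 1311 bins) the median ranks of both LentiAS libraries lay below those of both LentiGFP libraries, and in 3 they lay above (against 26% of the 1311 bins). The median gap between replicates of a domain's median rank was 3.39 percentile points in LentiAS and 3.93 in LentiGFP, next to the median difference of −4.68.

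The lowest domain was chr2:111000001-112000000, where 9 of 10 regions were under 0 and the median difference was −14.8. Its median ranks were 38.6 and 26.9 in LentiGFP replicates 1 and 2, and 13.0 and 20.8 in LentiAS replicates 1 and 2. The groups did not overlap, although the LentiGFP replicates themselves stood apart. The region chr2:111908327-111908965 had the lowest difference there, at −22.7, with pileups of 71 and 36 fragments in LentiGFP replicates 1 and 2 and of 22 and 43 in LentiAS replicates 1 and 2. Its ranks were 42.6, 42.2, 8.40 and 31.0 in that order, so most of its shift came from LentiAS replicate 1.

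The domain chr5:16000001-17000000 had 11 of 13 regions under 0 and a median difference of −14.8 as well. Its median ranks were 35.4 and 53.2 in LentiGFP replicates 1 and 2, and 35.9 and 25.9 in LentiAS replicates 1 and 2, so that its groups overlapped at this level. The strongest site of this domain stayed at the top of every list. It was chr5:16842026-16844020, with ranks of 99.1 and 99.9 in LentiGFP and 99.4 and 99.9 in LentiAS. A weak site close by, chr5:16833914-16834468, had ranks of 26.2 and 40.6 in LentiGFP and 8.40 and 12.8 in LentiAS, a difference of −22.8.

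In chr16:22000001-23000000, 16 of 20 regions were under 0, with a median difference of −10.8. Its median ranks were 41.1 and 45.1 in LentiGFP replicates 1 and 2, and 35.2 and 34.1 in LentiAS replicates 1 and 2. The lowest region was chr16:22100371-22100940, with pileups of 70 and 39 in LentiGFP and 25 and 39 in LentiAS and a difference of −24.7. The next bin, chr16:23000001-24000000, was also a member, with all 11 of its regions under 0 and a median difference of −6.76. In chr9:30000001-31000000 all 10 regions were under 0, with a median difference of −9.96 and median ranks of 52.9 and 46.6 in LentiGFP and 34.5 and 38.2 in LentiAS. The other six of the 10 lowest domains began at 25 Mb of chromosome 4, 12 Mb of chromosome 15, 45 Mb of chromosome 17, 179 and 105 Mb of chromosomes 2 and 9, and 61 Mb of chromosome 1, with median differences from −9.80 to −8.59. The last of these, chr1:61000001-62000000, had 12 of 13 regions under 0.

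**Figure D3:**
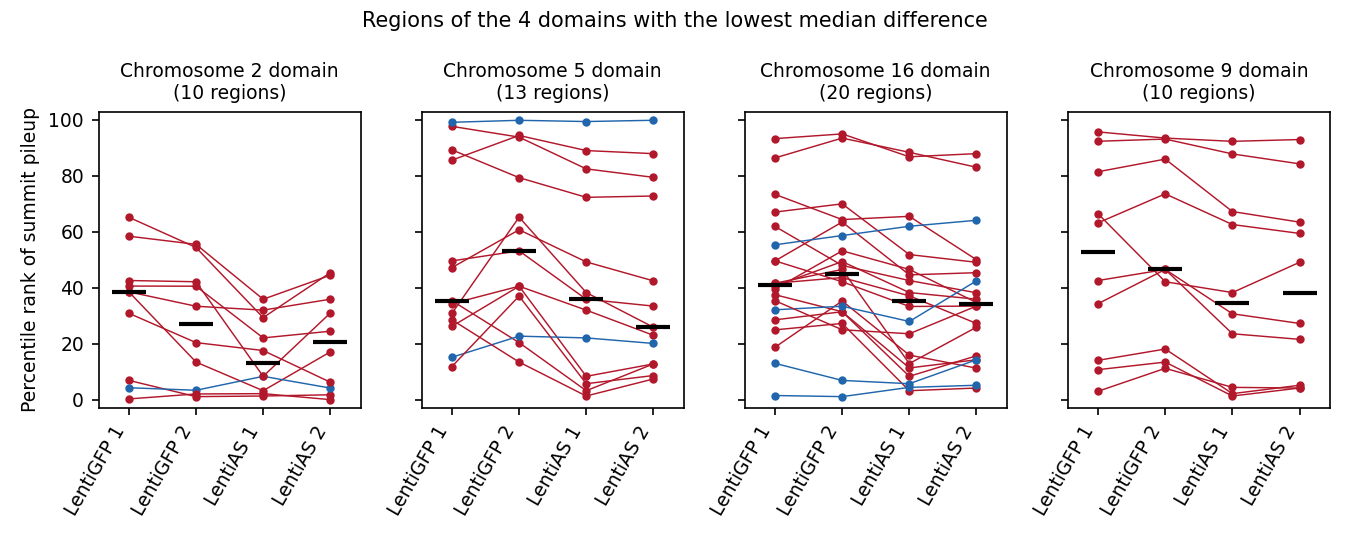
Percentile rank of summit pileup of each region in each library, for the 4 domains with the lowest median difference, on chromosomes 2, 5, 16 and 9 with 10, 13, 20 and 10 regions. Lines join the values of 1 region, red where the difference is under 0 and blue elsewhere, and black bars are medians. Most red lines step down between LentiGFP 2 and LentiAS 1, while the uppermost line of the chromosome 5 panel stays between 99.1 and 99.9.

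The domains with the most regions had median differences on both sides of the −4.68 over all domains. After the one on chromosome 14 came chr10:43000001-44000000, with 20 of 25 regions under 0 and a median of −5.19, chr9:113000001-114000000, with 17 of 22 and −4.62. They were followed by 5 domains with 21 regions each. Of these, chr2:257000001-258000000 had 16 regions under 0 and a median of −3.48, chr1:255000001-256000000 had 18 and −2.99, and those on chromosomes 3 and 6 had medians from −4.43 to −1.43. In the domain on chromosome 10 the median ranks were 58.5 and 61.7 in LentiGFP and 59.4 and 60.1 in LentiAS, which overlapped.

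The single region with the lowest difference was chr17:89389519-89390261, at −34.1. Its pileup was 95 and 38 fragments in LentiGFP replicates 1 and 2 and 25 and 39 in LentiAS replicates 1 and 2, and its ranks were 61.9, 45.1, 12.9 and 25.9. Both LentiAS ranks lay below both LentiGFP ranks, but the LentiGFP replicates stood apart as well. Unlike the typical region of a domain, it was also lower in fold, at 6.28 and 5.72 in LentiGFP and 4.86 and 5.30 in LentiAS.

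Of the 10 lowest regions, 2 lay in 1 domain, chr4:34000001-35000000, where 12 of 14 regions were under 0. chr4:34075629-34076725 had pileups of 77 and 44 in LentiGFP and 26 and 36 in LentiAS and a difference of −32.6, and chr4:34465305-34465880 had a difference of −28.3. Next came chr1:252589353-252590283, with pileups of 104 and 54 in LentiGFP and 42 and 46 in LentiAS and a difference of −29.7. At chr15:55213598-55214506 the pileups were 63 and 36 in LentiGFP and 19 and 31 in LentiAS, a difference of −28.9. The remaining members of this group had differences between −28.7 and −27.1, at chr18:6956723-6957571, chr2:231824027-231825200, chr19:32427691-32428307, chr2:104223099-104223868 and chr2:47328846-47329770. For all 10 regions both the background and the fold rank differences were under 0. They were picked by pileup rank, and fold contains the pileup. Over the 2406 regions, 83.1% were under 0 in background and 49.6% in fold.

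Some sites in the domains ranked higher in LentiAS. The largest of these differences was 26.8, at chr8:44173797-44174764, where the ranks were 32.2 and 27.3 in LentiGFP and 56.6 and 56.5 in LentiAS and the pileups 61, 28, 63 and 69. Its background also ranked higher, by 15.1 points. chr9:54602456-54602913 followed at 24.1, chr2:20061222-20061709 and chr2:47194985-47195493 at 23.6, and chr3:114218087-114218786 at 20.2. The chromosome 2 domain that starts at 47 Mb thus held 1 of the 10 lowest and 1 of the 5 highest regions.

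The rule fixes a majority under 0 among the members, so the shares by strength are a description. Of the 740 members with a mean rank up to 25 over the 4 libraries, 75.5% were under 0, followed by 81.0% of 641 up to rank 50, 87.4% of 508 up to rank 75 and 88.6% of 517 above it. Over all kept regions these shares were 49.8%, 48.4%, 48.1% and 48.9%. The median difference was −3.68, −6.99, −5.73 and −2.77 percentile points in the same order, next to 0.038, 0.42, 0.34 and 0.077 over all kept regions. The strongest sites had the highest share under 0 and the smallest median difference, on a scale that ends at 100.

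The median width of the regions was 803 bp, next to 798 bp for all kept regions. They were more sparsely placed. The nearest kept region was at a median of 20.4 kb, compared with 14.7 kb over all kept regions and 9.64 kb in the domains shifted up. They lay deeper inside the chromosomes, at a median of 38.7 Mb from the outermost listed peak, compared with 29.9 Mb and 21.7 Mb. Their mean rank over the 4 libraries had a median of 42.4, compared with 49.5 and 58.1. These are descriptions, since the rule sets a minimum number of regions per bin.

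The domains were found among the bins with few regions. Of 419 bins with 10 to 14 kept regions, 117 (27.9%) were shifted down and 18 up. Of 322 bins with 15 to 19 regions, 45 (14.0%) were shifted down and 16 up, and of 371 bins with 20 to 29 regions, 15 (4.04%) were shifted down and 52 up. None of the 199 bins with 30 to 74 regions was shifted down, while 64 were shifted up. The bins shifted up showed the opposite order. How far the number of regions in a bin sets these shares was not tested.

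The share of bins shifted down was highest on chromosome 2, with 24 of 104 (23.1%), and on chromosome 4, with 18 of 88 (20.5%). It was lowest on chromosome 10, with 2 of 80 (2.5%), and on chromosome 12, with 1 of 38 (2.63%). Chromosome 10 also had the most kept regions per bin, at a mean of 26.5, and 27 of its bins were shifted up.

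Most domains stood alone, with 144 single bins, 15 runs of 2 and 1 run of 3. The run of 3 was chr15:54000001-57000000, where 29 of 35 regions were under 0 with a median difference of −2.23 and median ranks of 37.5 and 42.2 in LentiGFP and 30.7 and 38.2 in LentiAS. The run with the next most regions, chr17:89000001-91000000, contained the lowest single region. It had 28 of 34 regions under 0, a median difference of −5.97 and median ranks of 61.6 and 59.2 in LentiGFP and 50.6 and 53.0 in LentiAS, which did not overlap. chr1:242000001-244000000 had 27 of 33 regions under 0 and median ranks of 38.6 and 38.8 in LentiGFP and 22.1 and 27.3 in LentiAS. Runs at chr7:14000001-16000000 and chr5:24000001-26000000 had median differences of −3.37 and −3.91.

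The bins next to a domain leaned the same way. There were 153 neighbouring places with at least 10 kept regions, of which 34 (22.2%) were themselves shifted down, compared with 8.46% of the 1808 such places next to any bin with at least 10 regions. Of the 153, 6 were shifted up. Among the 119 places that were not themselves shifted down, 68 (57.1%) had a majority of regions under 0, compared with 29.3% of the 1655 such places next to any bin with at least 10 regions. Neither comparison was matched for the number of kept regions per bin. The share shifted down was 27.9% of bins with 10 to 14 regions and 4.04% of those with 20 to 29. When the bins that were members themselves were left out, the median difference was −0.96 percentile points in the bin before a domain and −1.54 in the bin after it, with 56.2% and 59.4% of regions under 0. The corresponding background differences were −1.76 and −2.69. By 5 Mb the pileup differences were 0.13 before and −0.074 after the domains.

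**Figure D4:**
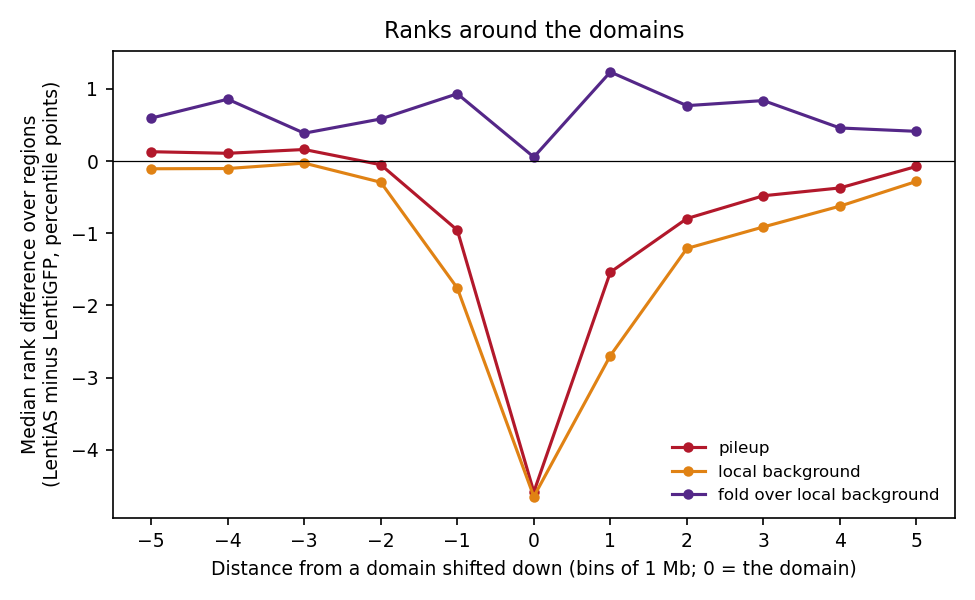
Median rank difference over regions, LentiAS minus LentiGFP in percentile points, at distances of up to 5 bins of 1 Mb on either side of the domains shifted down, with other such domains left out of the flanks. Pileup is −4.58 in the domains and −0.96 and −1.54 in the bins next to them, local background follows it at −4.65, −1.76 and −2.69, and fold stays above 0 throughout.

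To read domains in libraries that had not chosen them, the rule was applied to 1 LentiAS and 1 LentiGFP library. The bins so chosen, which are not the 177 domains, were followed in the other pair. With LentiAS replicate 1 and LentiGFP replicate 1, 129 bins were chosen, and 1078 of their 1720 regions (62.7%, against 50.2% of all kept regions) ranked lower in the other LentiAS library. The majority was lower in 94 of these bins (72.9%, against 47.8% of all bins with at least 10 regions), and 37 (28.7%, against 9.84%) passed the rule again. With LentiAS replicate 1 and LentiGFP replicate 2, 140 bins were chosen and 1369 of 1939 regions were lower (70.6%, against 49.6%). The majority was lower in 128 bins (91.4%, against 44.5%), and 61 passed again (43.6%, against 9.92%).

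With LentiAS replicate 2 and LentiGFP replicate 1, 130 bins were chosen and 1231 of 1725 regions were lower (71.4%, against 49.2%), with a lower majority in 115 bins (88.5%, against 45%) and 61 bins passing again (46.9%, against 10.7%). With LentiAS replicate 2 and LentiGFP replicate 2, 129 bins were chosen and 1199 of 1920 regions were lower (62.4%, against 48.7%), with a lower majority in 97 bins (75.2%, against 43.5%) and 37 passing again (28.7%, against 9.84%). The mean share was 66.8% ± 4.87 (SD over the 4 choices, which share libraries). The shares were higher when the libraries that chose the bins had different replicate numbers than when they had the same number. Shares over all bins were not matched for the number of kept regions per bin, with which the share shifted down fell. In both directions of each split the bins leaned lower in the unused LentiAS library, and in neither did most of them pass the 75% rule again.

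Ranked by fold, the rule on 1 library per group chose 27, 31, 31 and 49 bins. The regions lower in the unused LentiAS library made up 52.9% (against 51.8% of all kept regions), 56.1% (against 46.4%), 57.8% (against 50.2%) and 48.1% (against 45.6%) for the same 4 choices, a mean of 53.7% ± 4.26 (SD over the 4 choices). The excess over all kept regions was thus between 1.07 and 9.77 percentage points by fold, next to 12.5 to 22.1 by pileup.

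**Figure D5:**
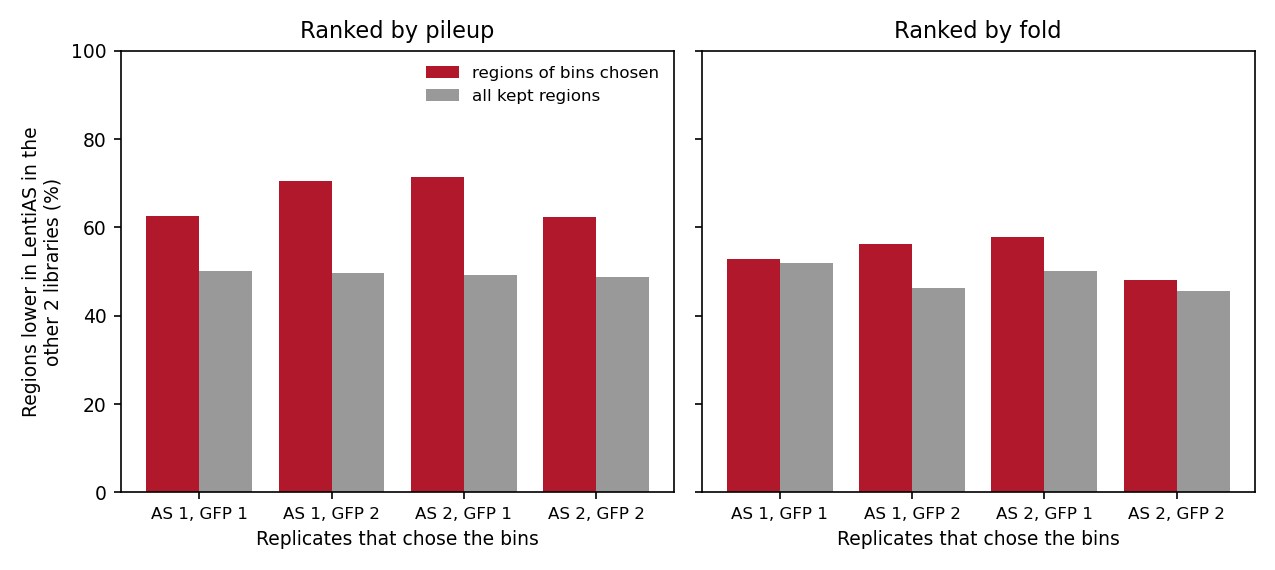
Percentage of regions that ranked lower in the LentiAS than in the LentiGFP library, read in the 2 libraries that had not chosen the bins. Labels name the LentiAS and LentiGFP replicates that chose the bins, red bars are the regions of those bins and grey bars all kept regions. By pileup (left) the red bars stand between 62.4% and 71.4%, and by fold (right) between 48.1% and 57.8%.

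Few peaks outside the kept set were found in both lists of 1 group and in neither list of the other. The bins of the 177 domains held 4471 merged regions, of which 2065 (46.2%, against 46.0% over chromosomes 1 to 20) were missing from at least 1 list. Regions found in both LentiAS lists and neither LentiGFP list numbered 48 (1.07%, against 1.82% over chromosomes 1 to 20). Those found in both LentiGFP lists and neither LentiAS list numbered 73 (1.63%, against 1.21%). In the domains shifted up, with 7262 merged regions, these counts were 210 (2.89%) and 32 (0.441%). Of the merged regions in the domains, 94.1% and 59.9% were present in LentiGFP replicates 1 and 2 and 68.4% and 75.3% in LentiAS replicates 1 and 2. Over chromosomes 1 to 20 the shares were 91.7%, 59.2%, 72.5% and 77.1% in the same order. Of the 2065 regions missing from a list, 87.2% were in LentiGFP replicate 1 and 13.3% in LentiGFP replicate 2. A region of LentiAS only must be absent from the former, and a region of LentiGFP only present in the latter, which limits both counts.

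The fit that the design set for single regions made no call. This fit with limma to normal scores of the ranks, over all 31790 kept regions, called 0 regions lower (0%) and 0 higher (0%) at a Benjamini-Hochberg adjusted p of 0.05, and the smallest adjusted p was 0.242. At an unadjusted p of 0.05 it gave 1954 lower (6.15%) and 1911 higher (6.01%). Among the 2406 regions of the domains 368 (15.3%) were lower and 34 higher at that level, a count that the rule's use of the same contrast raises.

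A second fit, chosen after the data were seen, used the mean normal score of each bin. By limma it called 81 of the 1311 bins lower (6.18%) and 49 higher (3.74%) at an adjusted p of 0.05, with 197 lower (15%) and 222 higher (16.9%) at an unadjusted p of 0.05. Of the 177 domains, 68 (38.4%) were among the bins called lower and 0 among those called higher, and 136 were lower and 0 higher at the unadjusted level. These calls rest on the same contrast as the choice. They were lost entirely when either LentiAS replicate was left out or when bins were ranked by fold, with 0 bins called by limma in each case. At an unadjusted p of 0.05, limma then gave 137 bins lower and 93 higher without LentiAS replicate 1, 155 and 139 without LentiAS replicate 2, and 60 and 76 by fold. Without LentiGFP replicate 1 or 2 the calls numbered 199 and 203 bins. In these fits the lone library of a group was assumed to vary like the other group.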

How the data were processed

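ATAC-seq peak lists of 4 libraries of rat Schwann cells, 2 LentiGFP and 2 LentiAS, were used, with groups and replicate numbers taken from the labels. According to the study's methods, the authors aligned reads to rn6 with Bowtie2, removed duplicates with Picard and called peaks per library with MACS2. Versions, options and any shift for the transposase are not given in the sources used here. Each deposited list gives a fold ratio of summit pileup over local background, a −log10 p and a −log10 q for the peak, as the authors' caller wrote them, and a deposited score made from the latter. The lists hold no read totals, so depth is known only as the background.

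A whole pileup and a background were recovered for each peak from the fold and the −log10 p under the Poisson model, within 0.001 for 100% of peaks. Positions count from 1. Regions were ranked within each library, with ties averaged, and bins of 1 Mb were cut from the start of each chromosome by the midpoint of the region. The members, gene lists and tests were chosen with earlier results of these data known. Normal scores of the ranks went into limma 3.58.1 under R 4.3.3, with Benjamini-Hochberg adjustment, and other steps used Python 3.11.15 with pandas 2.3.3 and scipy 1.17.1. Scripts were tested on simulated data. Domains named were the 10 with the lowest median difference, 5 with the most regions (ties taken in order of chromosome), 5 of the runs of adjacent domains by number of bins and then of regions, and those nearest the threshold. The domains on chromosome 4 at 34 Mb and chromosome 16 at 23 Mb, the domains with 21 regions on chromosomes 3 and 6, and the strongest site of the chromosome 5 domain, were named after their values were seen. Regions named are the 10 lowest, the 5 highest and the lowest in each of the 3 lowest domains. Gene and marker lists were not analysed here, since the reference used no rn6 coordinates.

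Alternatives were other bin sizes and starts, stricter thresholds, ranking by fold or −log10 p, a stricter peak threshold, equal list lengths, a stricter overlap, a replicate block, a log2 scale and leaving out each library.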

Additional observations from a re-analysis of the deposited data

How the results depend on the processing

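The number of domains shifted down, 177 in the report, was 79 with bins of 0.5 Mb, 15 with at least 20 regions per bin, 39 with at least 90% of regions under 0, 29 when ranked by fold, 95 when ranked by −log10 p and 114 when each peak had to cover 50% of the region. It was between 129 and 156 when 1 library was left out, and these sets covered 52.0% to 63.6% of the 2406 regions. Bins of 2 Mb, bins moved by 0.5 Mb, a −log10 q of at least 5 and equal list lengths gave 175, 153, 175 and 131 domains, which covered 61.9%, 38.5%, 96.7% and 66.0% of the 2406 regions.

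The region fit called 0 regions in the report and under 10 of its 11 alternatives, the replicate block included, and 775 (723 lower, 52 higher) on the log2 scale of pileup over genome-wide background centred on the median of each library, an alternative added after seeing the data. At an unadjusted p of 0.05, limma gave 22 to 2694 lower and 890 to 4576 higher regions over those 10 alternatives.

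The bin fit called 130 bins in the report, 0 with a replicate block (154 lower and 142 higher by limma at an unadjusted p of 0.05), 433 (219 lower, 214 higher) with the crossed replicate numbers as the block, 0 when ranked by fold and 0 to 203 when 1 library was left out. The numbers are not said to pair the libraries. Deviations of same-numbered libraries correlated at −0.22 over kept regions and −0.36 over bins, and the crossed pairing was chosen after seeing the data. The share of regions lower in libraries that had not chosen the bins was 66.8% by pileup and 53.7% by fold. The background gap was −0.27. The deposited fold, which is pileup over local background and thus another quantity, gave a gap of 1.08, next to 1.09 over all kept regions. The cause of these changes was not tested. Depth differed 2.52 times between the LentiGFP libraries, and 2 libraries per group limit every comparison.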

Other observations

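The X chromosome was not tiled by the rule. It held 595 kept regions, of which 48.9% had a difference under 0, with a median of 0.18 percentile points. Of its 18 bins of 1 Mb with at least 10 kept regions, 1 met the terms of a domain shifted down and 3 those of a domain shifted up.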
